A study of Mus musculus with 28 samples.

Results

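The enzymes described here make cholesterol, and they are 10 genes taken by name from the pathway, namely Acat2, Hmgcs1, Mvk, Idi1, Fdps, Fdft1, Lss, Cyp51, Nsdhl and Dhcr7. A row of the deposited tables was taken as a member when any of its names was one of these. The RNA table, with 3147 rows, held 8 of the 10 members, and the ribosome-footprint table, with 6250 rows, held 9. RNA of Fdft1 and Dhcr7 and footprints of Mvk were not analysed here, and 7 members had a row of each kind. Acat2 RNA is listed in a row shared with the related gene Acat3, under the name Acat3;Acat2, called the Acat2 row here. Of the 30-base words in an Acat2 transcript, 30 bases being the read length, 50.8% also occur in an Acat3 transcript, so the share of each gene in that row is uncertain. In a later annotation the exons of Fdps overlap another gene of the same strand, and those of Hmgcs1, Idi1, Fdft1, Lss and Cyp51 overlap genes of the opposite strand. The libraries keep strand, but whether the authors' counting used it is not given in the sources used here.

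The cells were dendritic cells grown with GM-CSF from the marrow of female C57BL/6J mice 6 to 8 weeks old. On the ninth day they received LPS (lipopolysaccharide of Escherichia coli K12, which the receptor Tlr4 recognises) at 100 ng/ml, or mock stimulation, meaning no stimulus. Polyadenylated RNA was sequenced from LPS cells at 1, 2, 4, 6, 9 and 12 h, from mock cells at the same times, and from cells at 0 h, with 2 libraries in each of the 13 groups. Ribosome footprints came from 2 libraries of resting, unstimulated cells that were given cycloheximide just before lysis to hold ribosomes in place. All RNA groups shared a change of culture medium at 0 h to one with heavy amino acids, made for protein labelling. Whether the 2 libraries of a group came from separate mice or cultures is not stated. The p-values thus reflect only how far the 2 libraries of a group differ, possibly for technical reasons.

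Cholesterol is built from acetyl-CoA. Acat2 and Hmgcs1 join acetyl groups into HMG-CoA, the precursor of mevalonate. Mvk, Pmvk and Mvd turn mevalonate into an activated isoprene unit, Idi1 isomerises it, and Fdps links such units into farnesyl diphosphate, which also feeds protein prenylation. Fdft1 commits farnesyl diphosphate to squalene, Lss closes the sterol ring, and Cyp51, Nsdhl and Dhcr7 are among the enzymes that trim it to cholesterol. Most of these genes are textbook targets of SREBP-2 (Srebf2), a transcription factor held in the endoplasmic reticulum when sterol is plentiful and released when it runs short, and SREBP acts together with NF-Y and Sp1.

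RNA values were deposited as TPM (a length-corrected share of transcripts), which add up to a fixed total over the listed genes in every library, so they are relative levels with no read depth, and precision rests on the spread between libraries. Differences are log2 fold changes of TPM plus 1, LPS minus mock, with the standard error of a limma fit to all 13 groups, and a call means an adjusted p (Benjamini-Hochberg over all 3147 genes) under 0.05. The median gene lay at -0.05, -0.16, -0.46, -0.44, -0.44 and -0.39 at 1, 2, 4, 6, 9 and 12 h on this scale, so values after median-ratio rescaling, which removes that shift, are given where they end a call. So are values after quantile normalisation, which gives every library the same distribution, and in the compared groups alone, a fit to only the libraries of the contrast. All 7 genes listed as positive controls of LPS stimulation rose at late times, Il1b by 6.04 ± 0.34 (adjusted p = 2e-10). Of 16 dendritic cell markers 6 had an RNA row, and none was near 0: Cd74 ranged from 3280 to 12400 TPM and Itgax from 442 to 1090 TPM over the 26 libraries. Zbtb46 and Flt3 are not among the RNA rows used. In bulk RNA, fewer cells of a type and less RNA per cell cannot be told apart.

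The stretches upstream of the genes are shown because sterol-regulated promoters are known for a few short motifs. All 8 measured members were called lower late after LPS, though Idi1 was not after rescaling or quantile normalisation. For 8 of the 10 members (not Fdps or Fdft1) RefSeq windows of build GRCm38.p6 gave the 250 bases before the annotated start. Capitals in the sequences below mark TCACNCCAC, a form of the sterol response element that SREBP binds, and CCAAT on either strand (read as ATTGG on the other), the box of NF-Y, and no match of one overlapped the other. Of the 4 genes shown, Hmgcs1 (chr13:119690101-119690350, plus strand) held the only TCACNCCAC of the 8, and Mvk (chr5:114444019-114444268, plus strand) held 5 CCAAT boxes. Idi1 (chr13:8885356-8885605, plus strand) is the member called higher at 2 h, and Cyp51 (chr5:4104698-4104947, minus strand) had the largest late difference. Each is written 5′ to 3′ on the strand of its gene.
Hmgcs1: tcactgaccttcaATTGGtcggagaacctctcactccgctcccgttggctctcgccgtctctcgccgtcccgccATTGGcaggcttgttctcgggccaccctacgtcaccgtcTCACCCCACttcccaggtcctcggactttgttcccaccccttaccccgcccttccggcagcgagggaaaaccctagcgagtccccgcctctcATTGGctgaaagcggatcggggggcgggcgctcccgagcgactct
Mvk: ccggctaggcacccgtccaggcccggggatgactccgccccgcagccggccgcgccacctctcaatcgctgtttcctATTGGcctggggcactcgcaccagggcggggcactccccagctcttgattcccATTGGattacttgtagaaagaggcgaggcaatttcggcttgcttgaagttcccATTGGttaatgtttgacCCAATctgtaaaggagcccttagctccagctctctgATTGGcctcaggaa
Idi1: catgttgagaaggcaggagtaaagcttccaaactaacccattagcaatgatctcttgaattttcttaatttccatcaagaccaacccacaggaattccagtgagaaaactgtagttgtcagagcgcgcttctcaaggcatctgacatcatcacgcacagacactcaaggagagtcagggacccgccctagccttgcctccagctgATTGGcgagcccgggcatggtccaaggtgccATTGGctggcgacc
Cyp51: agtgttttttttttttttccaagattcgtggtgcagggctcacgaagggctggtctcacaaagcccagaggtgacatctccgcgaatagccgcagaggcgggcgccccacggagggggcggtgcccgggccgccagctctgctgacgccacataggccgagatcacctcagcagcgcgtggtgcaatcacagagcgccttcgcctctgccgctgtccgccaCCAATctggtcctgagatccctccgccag
The TCACNCCAC of Hmgcs1 began 137 bases before the RefSeq start, and 1.05% of all 32851 promoter windows of the same length held one. For Hmgcs1 and Nsdhl, bases just after that start were not found near the beginning of any GENCODE transcript of the gene. For the other members with a window they were. The starts of Hmgcs1 and Nsdhl, and distances from them, are thus less certain. CCAAT was present in 7 of the 8 members with a window, all but Acat2, against 33.8% of all windows. GGGCGG on either strand, the box of Sp1, was present in all 8, against 32.7% of all windows. For Dhcr7, which has 3 annotated starts, a match in any window was counted. These are matches of letters and not shown to be bound in these cells.

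Before stimulation the members were spread widely over the range of RNA levels. Fdps had the highest mean at 0 h, 202 ± 73.8 TPM (SD, n = 2), above 78.2% of the listed genes. Idi1 (149 ± 21.3 TPM), Cyp51 (142 ± 50.6 TPM) and Hmgcs1 (97.1 ± 12.9 TPM) came next in that order. The Acat2 row (58.0 ± 6.71 TPM), Mvk (57.1 ± 17.1 TPM), Nsdhl (32.0 ± 11.8 TPM) and Lss (19.8 ± 11.9 TPM) followed, Lss above 8.90% of the listed genes. The libraries of neighbours in this order overlapped, other than those of Hmgcs1 and the Acat2 row and those of Mvk and Nsdhl. In mock cells at 9 and 12 h none of the 8 differed from 0 h by limma (0.0% of all genes were called, and 86 of 3147 had an unadjusted p under 0.05, none of them a member), and the members' differences lay between -0.46 and -0.02.

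After LPS the summed RNA of the 8 members was below its mock level from 4 h on. The 8 members together made up 202 and 210 TPM in LPS cells at 12 h, against 638 and 631 TPM in mock cells at 12 h and 779 and 734 TPM at 0 h. At 2 h the sums were 778 and 680 TPM in LPS cells, within the 666 and 838 TPM of mock cells. At 4 h they were 512 and 456 TPM in LPS cells, below the 743 and 940 TPM in mock cells, and the groups stayed apart at each later time. Over all 6 times together, 8 of 8 members passed the joint F test (57.2% of all genes did). After quantile normalisation Idi1 (adjusted p = 0.071) and Lss (adjusted p = 0.055) did not pass that F test. For the mean of the late times, 6, 9 and 12 h, 8 of 8 were lower in LPS cells, where 47.7% of all genes were called lower, and the members' median was -1.53, beside -0.43 over all genes. The call of every member held with any 1 of the 12 late libraries left out. After rescaling 7 of 8 were lower (25.9% of all genes), with a median of -1.17 beside -0.03, and the exception was Idi1.

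**Figure D1:**
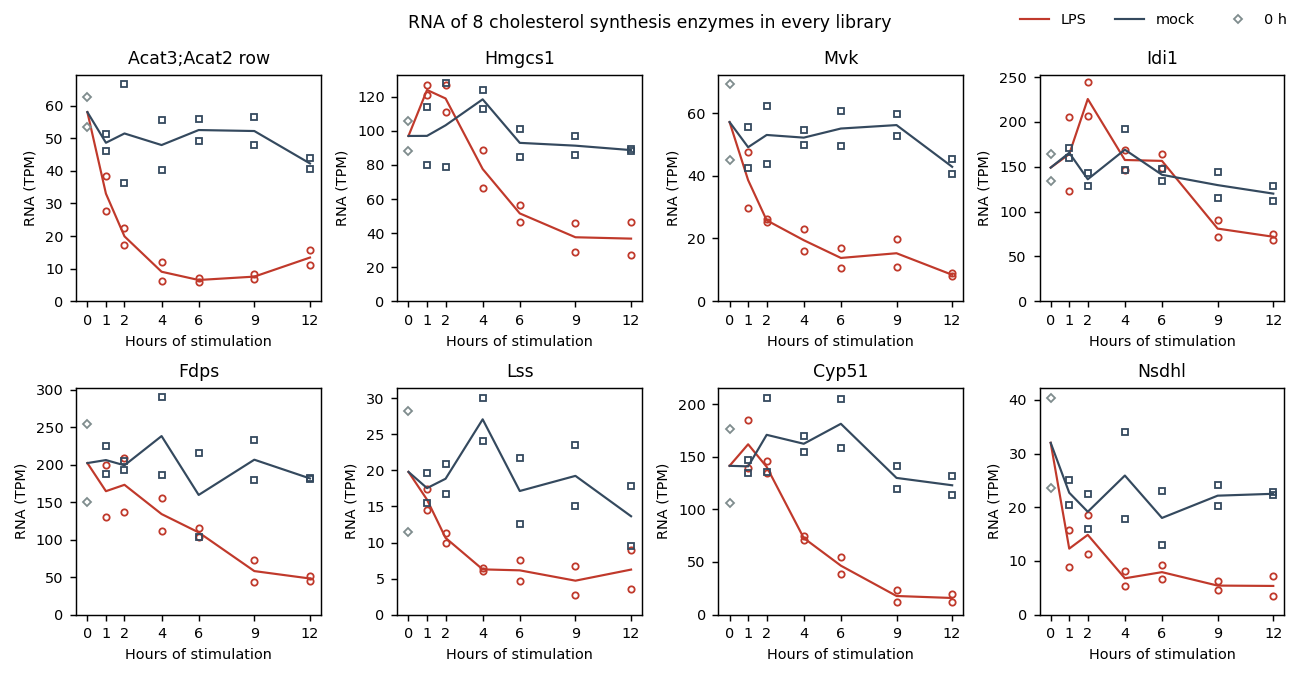
RNA of the 8 members with an RNA row, in TPM from 0, against hours of stimulation. Each symbol is 1 library (circles LPS, squares mock, diamonds 0 h) and lines join the means of 2 libraries; by 12 h Cyp51 is at 11.6 and 19.9 TPM in LPS cells, against 114 and 132 TPM in mock cells, while Idi1 is above mock at 2 h and below it from 9 h.

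The members were first called lower at different times, and whether their timing differed was not tested. At 1 h limma called 0 of 8 lower (0.794% of all genes) and 0 of 8 higher (3.27%), and the largest difference was that of Nsdhl (log2 -0.88 ± 0.41, adjusted p = 0.27), the 1 member with an unadjusted p under 0.05. At 2 h 2 were lower, the Acat2 row and Mvk (8.04% of all genes), and 1 was higher, Idi1 (6.39%). At 4 h 5 were lower (29.2%), the Acat2 row, Mvk, Lss, Cyp51 and Nsdhl. At 6 h Hmgcs1 brought the number to 6 (30.0%), at 9 h all 8 were lower (30.0%), and at 12 h 7 were, all but Lss (26.8%). At 4 and 6 h these shares of a small list stand beside 29.2% and 30.0% of all genes, and the sizes of the differences, given by enzyme next, carry more. The rescaled counts of lower members were 1 at 2 h (5.21%), 4 at 4 h (12.8%), 3 at 6 h (14.7%), 7 at 9 h (12.8%) and 6 at 12 h (13.9%). With the replicate number as a term they were 7 at 4 h (44.9% of all genes) and 8 at 12 h (39.1%).

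**Figure D2:**
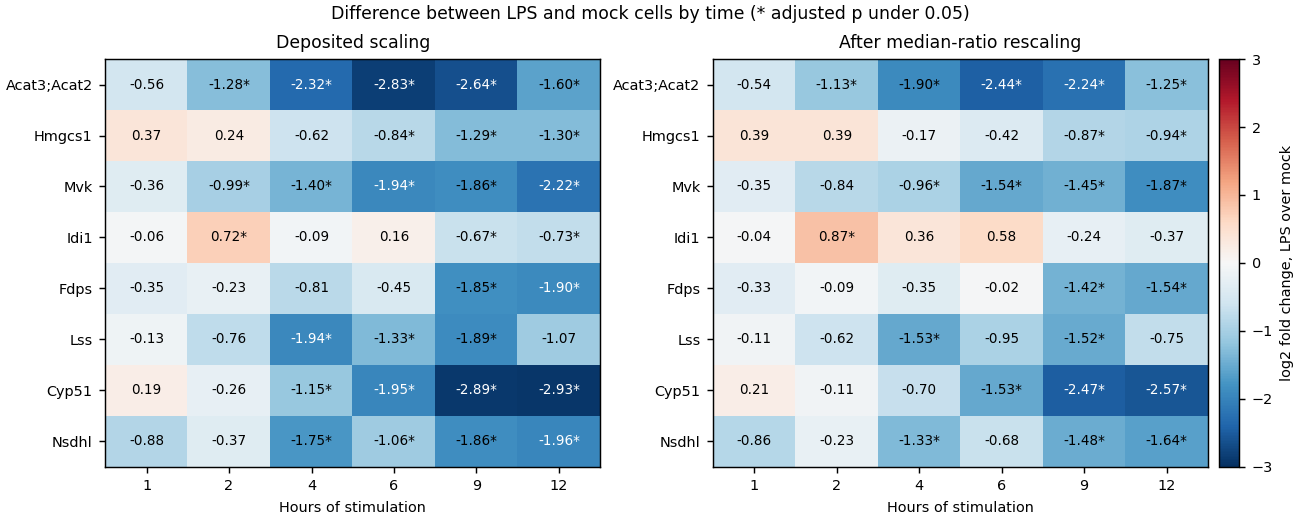
Log2 fold change of TPM plus 1, LPS over mock, for each member (rows, in pathway order) at each time in hours (columns), as deposited on the left and after median-ratio rescaling on the right; blue is lower in LPS cells and an asterisk marks an adjusted p under 0.05. The Acat2 row is lowest at 6 h (-2.83) and Cyp51 at 12 h (-2.93), and the single red cell with an asterisk in each panel is Idi1 at 2 h.

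The Acat2 row was called lower from 2 h on, as was Mvk. Acat2 is the cytosolic thiolase that condenses acetyl-CoA to acetoacetyl-CoA. It stood at 22.5 and 17.3 TPM in LPS cells at 2 h, against 36.4 and 66.5 TPM in mock cells. The lowest values came at 6 h, 7.00 and 6.03 TPM in LPS cells, against 49.0 and 56.0 TPM in mock cells. At 12 h it was 11 and 15.8 TPM in LPS cells, against 43.9 and 40.6 TPM in mock cells. LPS libraries were below mock libraries at every one of the 6 times. The difference was -1.28 ± 0.31 at 2 h (adjusted p = 0.0091), -2.83 ± 0.31 at 6 h (adjusted p = 2e-06) and -1.60 ± 0.31 at 12 h (adjusted p = 0.00064). The call at 2 h was lost without replicate 2 of mock (-0.85, adjusted p = 0.15) or of LPS (-1.10, adjusted p = 0.095) and in the compared groups alone (adjusted p = 0.083), within a range of adjusted p from 0.004 to 0.15 over its alternatives.

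Hmgcs1, the cytosolic HMG-CoA synthase, fell late. At 1 h it had 121 and 127 TPM in LPS cells, against 80.1 and 114 TPM in mock cells, and at 2 h 111 and 127 TPM in LPS cells, against 78.5 and 128 TPM in mock cells. The LPS libraries were the higher ones at 1 h and overlapped with mock at 2 h, and neither difference passed (0.37 ± 0.29, adjusted p = 0.52, and 0.24 ± 0.29, adjusted p = 0.69). At 9 h it had 28.9 and 46.2 TPM in LPS cells, against 96.8 and 85.8 TPM in mock cells, and at 12 h 27.0 and 46.5 TPM in LPS cells, against 89.2 and 88.2 TPM in mock cells. There both LPS libraries were below both mock libraries, and the differences were -1.29 ± 0.29 and -1.30 ± 0.29 (adjusted p = 0.002 each). At 6 h the difference of -0.84 ± 0.29 (adjusted p = 0.028) was lost without mock replicate 2 (-0.72, adjusted p = 0.14), LPS replicate 1 (-0.70, adjusted p = 0.16) or LPS replicate 2 (-0.98, adjusted p = 0.051), after rescaling (-0.42, adjusted p = 0.32), after quantile normalisation (-0.56, adjusted p = 0.14) and in the compared groups alone (adjusted p = 0.057). The call at 9 h was lost in the compared groups alone (adjusted p = 0.061). At 4 h, -0.62 ± 0.29 did not pass (adjusted p = 0.10) but did with a term for the replicate number (adjusted p = 0.02).

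Mvk, mevalonate kinase, was called lower from 2 h on and was lowest in LPS cells at 12 h. It had 26.3 and 25.3 TPM in LPS cells at 2 h, against 43.7 and 62.3 TPM in mock cells. At 6 h it had 17.0 and 10.6 TPM in LPS cells, against 49.5 and 60.6 TPM in mock cells. At 9 h it had 10.9 and 19.7 TPM in LPS cells, against 52.7 and 59.6 TPM in mock cells. At 12 h it had 8.91 and 7.95 TPM in LPS cells, against 40.4 and 45.3 TPM in mock cells. From 2 h on no LPS library reached the lowest mock library of its time, and the LPS mean at 12 h was 19.7% of the mock mean. The difference at 12 h was -2.22 ± 0.31 (adjusted p = 3.8e-05). At 2 h the difference of -0.99 ± 0.31 (adjusted p = 0.043) was lost without any 1 of the 4 libraries (-1.24 to -0.74, adjusted p = 0.057 to 0.29) after rescaling (-0.84, adjusted p = 0.10), after quantile normalisation (-0.79, adjusted p = 0.12) and in the compared groups alone (adjusted p = 0.082). At 4 h the call was lost after quantile normalisation (-0.80, adjusted p = 0.075).

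Idi1, the isopentenyl diphosphate isomerase, was the 1 member called higher at any time. Hmgcs1 also had positive differences at 1 and 2 h, which were not called. At 2 h Idi1 had 244 and 207 TPM in LPS cells, against 129 and 143 TPM in mock cells. Both LPS libraries were above every mock and 0 h library of Idi1, the highest of which was 192 TPM. The rise was 0.72 ± 0.23 (adjusted p = 0.041), and 0.87 ± 0.22 after rescaling (adjusted p = 0.011), but it did not pass without any 1 of the 4 libraries (0.61 to 0.84, adjusted p = 0.086 to 0.23), after quantile normalisation (0.69, adjusted p = 0.08) or in the compared groups alone (adjusted p = 0.12). At 4 and 6 h no difference passed (-0.09 ± 0.23 and 0.16 ± 0.23), and after rescaling the sign at 4 h turned to 0.36 and the value at 6 h was 0.58 (adjusted p = 0.05, not called). At 6 h both LPS libraries, 164 and 149 TPM, were above both mock libraries, 148 and 134 TPM. At 9 h it had 90.2 and 71.8 TPM in LPS cells, against 144 and 115 TPM in mock cells, and at 12 h 75.5 and 68.3 TPM in LPS cells, against 128 and 112 TPM in mock cells. These falls of -0.67 ± 0.23 (adjusted p = 0.027) and -0.73 ± 0.23 (adjusted p = 0.018) were the smallest among members called at those times. They did not pass after rescaling (-0.24, adjusted p = 0.45, and -0.37, adjusted p = 0.23), after quantile normalisation (adjusted p = 0.16 and 0.098) or in the compared groups alone (adjusted p = 0.18 and 0.068). The call at 9 h was also lost without mock replicate 1 (-0.51, adjusted p = 0.20) or LPS replicate 2 (-0.51, adjusted p = 0.17), and that at 12 h without mock replicate 1 (-0.64, adjusted p = 0.12) or LPS replicate 2 (-0.66, adjusted p = 0.093). Its late mean, -0.41 ± 0.13 (adjusted p = 0.011), was -0.01 after rescaling (adjusted p = 0.96) and -0.28 after quantile normalisation (adjusted p = 0.11).

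Fdps, farnesyl diphosphate synthase and the most abundant member at 0 h, passed the threshold at 9 and 12 h. It had 104 and 115 TPM in LPS cells at 6 h, against 215 and 104 TPM in mock cells, which overlapped (-0.45 ± 0.36, adjusted p = 0.34). At 9 h it had 72.6 and 43.3 TPM in LPS cells, against 233 and 180 TPM in mock cells, and at 12 h 51.3 and 44.8 TPM in LPS cells, against 182 and 181 TPM in mock cells. The LPS libraries then lay far below mock, by -1.85 ± 0.36 (adjusted p = 0.00074) and -1.90 ± 0.36 (adjusted p = 0.00062). At 4 h the difference of -0.81 ± 0.36 missed the threshold (adjusted p = 0.09) and passed it with the replicate term (adjusted p = 0.028).

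Lss, lanosterol synthase, is the least abundant member at 0 h and had the largest standard error. At 4 h it had 6.52 and 6.02 TPM in LPS cells, against 24.1 and 30.1 TPM in mock cells (-1.94 ± 0.47, adjusted p = 0.0037). Quantile normalisation ended that call (-1.07, adjusted p = 0.051). At 9 h it had 6.72 and 2.68 TPM in LPS cells, against 23.5 and 15.0 TPM in mock cells, and at 12 h 9.00 and 3.48 TPM in LPS cells, against 17.8 and 9.49 TPM in mock cells. LPS libraries were below mock libraries at each time from 2 h on, narrowly so at 12 h. The difference at 9 h was -1.89 ± 0.47 (adjusted p = 0.0042), lost without mock replicate 1 (-1.59, adjusted p = 0.052) or LPS replicate 2 (-1.36, adjusted p = 0.065), after quantile normalisation (-1.04, adjusted p = 0.054) and in the compared groups alone (adjusted p = 0.064). That at 6 h, -1.33 ± 0.47 (adjusted p = 0.032), was lost without mock replicate 1 (-0.96, adjusted p = 0.20) or LPS replicate 2 (-1.04, adjusted p = 0.19) after rescaling (-0.95, adjusted p = 0.13), after quantile normalisation (-0.55, adjusted p = 0.31) and in the compared groups alone (adjusted p = 0.057). At 12 h, -1.07 ± 0.47 did not pass (adjusted p = 0.085), but it did with the replicate term (adjusted p = 0.02) or without LPS replicate 1 (-1.65, adjusted p = 0.029). On the scale of TPM plus 1, changes of a gene this low are understated.

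Cyp51, the lanosterol demethylase, had the largest late difference on the log2 scale (-2.59 ± 0.19). The Acat2 row was near it (-2.36 ± 0.18), and their order was not tested. At 1 h Cyp51 had 185 and 139 TPM in LPS cells, against 135 and 147 TPM in mock cells. At 2 h it had 135 and 146 TPM in LPS cells, against 136 and 206 TPM in mock cells. At 4 h it had 70.9 and 74.7 TPM in LPS cells, against 155 and 170 TPM in mock cells, and at 6 h 38.1 and 54.9 TPM in LPS cells, against 158 and 205 TPM in mock cells. The groups overlapped at 1 and 2 h and were apart at each later time. At 9 h it had 11.7 and 23.6 TPM in LPS cells, against 119 and 141 TPM in mock cells, and at 12 h 11.6 and 19.9 TPM in LPS cells, against 114 and 132 TPM in mock cells. The LPS mean was 44.8% of the mock mean at 4 h, 25.6% at 6 h, 13.5% at 9 h and 12.8% at 12 h. The difference at 12 h was -2.93 ± 0.33 (adjusted p = 3.3e-06), and -2.57 ± 0.34 after rescaling. At 4 h, -1.15 ± 0.33 (adjusted p = 0.011) was lost after rescaling (-0.70, adjusted p = 0.16) and without mock replicate 2 (-1.08, adjusted p = 0.062) or LPS replicate 1 (-1.11, adjusted p = 0.054).

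Nsdhl, a dehydrogenase that helps remove methyl groups from the sterol ring, was low from 4 h on. At 4 h it had 8.13 and 5.38 TPM in LPS cells, against 17.8 and 34.0 TPM in mock cells, and at 12 h 7.17 and 3.49 TPM in LPS cells, against 22.8 and 22.2 TPM in mock cells. LPS libraries were below mock libraries at 1 h and at each time from 4 h, and overlapped with them at 2 h. The difference was -1.75 ± 0.41 at 4 h (adjusted p = 0.003), lost without mock replicate 2 (-1.30, adjusted p = 0.054) and after quantile normalisation (-0.89, adjusted p = 0.083), and -1.96 ± 0.41 at 12 h (adjusted p = 0.0013). At 6 h, -1.06 ± 0.41 (adjusted p = 0.047) was lost after rescaling (-0.68, adjusted p = 0.21), after quantile normalisation (-0.36, adjusted p = 0.50), in the compared groups alone (adjusted p = 0.088), with 5 TPM added (-0.81, adjusted p = 0.051), and without mock replicate 1 (-0.67, adjusted p = 0.30), LPS replicate 1 (-0.84, adjusted p = 0.24) or LPS replicate 2 (-1.28, adjusted p = 0.068).

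Over the 3 late times Cyp51 (-2.59 ± 0.19), the Acat2 row (-2.36 ± 0.18) and Mvk (-2.01 ± 0.18) were lowest against mock. Nsdhl (-1.63 ± 0.24), Lss (-1.43 ± 0.27), Fdps (-1.40 ± 0.21) and Hmgcs1 (-1.14 ± 0.17) followed, with adjusted p from 4.9e-09 to 0.00022 over these 7. The late LPS libraries overlapped with the late mock libraries for Idi1 and Fdps and lay wholly below them for the other members. How many of all genes separate in this way was not counted. For Cyp51, the 6 late LPS libraries ran from 11.6 to 54.9 TPM with a median of 21.7, against 114 to 205 TPM with a median of 136 in the 6 late mock libraries.

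Whether the late difference exceeded the early one, the mean of 1 and 2 h, was tested directly, and 6 of 8 members had a lower LPS effect late (22.2% of all genes). Cyp51 moved most, by -2.56 ± 0.30 (adjusted p = 1e-05), then Hmgcs1 by -1.45 ± 0.26 (adjusted p = 0.00055), the Acat2 row by -1.44 ± 0.28 (adjusted p = 0.001) and Mvk by -1.33 ± 0.29 (adjusted p = 0.0022). Fdps, -1.11 ± 0.33 (adjusted p = 0.018), was lost after rescaling (-0.79, adjusted p = 0.088), after quantile normalisation (-0.84, adjusted p = 0.098) and without LPS replicate 1 of 1 h (-0.95, adjusted p = 0.05) or of 2 h (-0.95, adjusted p = 0.055), and Idi1, -0.75 ± 0.21 (adjusted p = 0.012), after rescaling (-0.43, adjusted p = 0.14) and quantile normalisation (-0.53, adjusted p = 0.11). Lss (-0.98 ± 0.43, adjusted p = 0.093) and Nsdhl (-1.0 ± 0.37, adjusted p = 0.051) did not pass, and both did with the replicate term (adjusted p = 0.021 and 0.022). Lss also passed without LPS replicate 1 of 9 h (-1.16, adjusted p = 0.047) or 12 h (-1.18, adjusted p = 0.042). Nsdhl also passed with 0.1 TPM added (-1.11, adjusted p = 0.047), in the compared groups alone (adjusted p = 0.044) and without LPS replicate 2 of 1 h (-1.20, adjusted p = 0.031) or 2 h (-1.17, adjusted p = 0.04), mock replicate 2 of 6 h (-1.13, adjusted p = 0.034) or LPS replicate 1 of 12 h (-1.15, adjusted p = 0.029). After rescaling 4 of 8 passed (10.5% of all genes), and with the replicate term 8 of 8 (37.2%).

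A further contrast, chosen after seeing the data, set the LPS effect at 9 and 12 h against that at 4 and 6 h. Limma called 1 member lower, Cyp51 at -1.36 ± 0.33 (adjusted p = 0.027, 1.33% of all genes), and 0 higher (2.64%), with Idi1 and Fdps the other members at an unadjusted p under 0.05. The Cyp51 call was lost without any 1 of 8 of the 16 libraries involved, namely mock replicate 1 or LPS replicate 2 of 4 or 6 h, and mock replicate 2 or LPS replicate 1 of 9 or 12 h. Values without these 8 lay between -1.34 and -1.12, the call was also lost after quantile normalisation (-1.21, adjusted p = 0.068) and in the compared groups alone (adjusted p = 0.054), and the adjusted p ran from 0.0012 to 0.075 over all alternatives. Idi1 (-0.73 ± 0.23, adjusted p = 0.091) and Fdps (-1.25 ± 0.36, adjusted p = 0.068) passed with the replicate term (adjusted p = 0.015 and 0.010), and Fdps also after rescaling (-1.29, adjusted p = 0.046) and without mock replicate 1 of 6 h (-1.51, adjusted p = 0.026) or LPS replicate 1 of 9 h (-1.43, adjusted p = 0.041). The Acat2 row had a value of 0.46 ± 0.31 (adjusted p = 0.53), its mean in LPS cells being 12.4% of mock at 6 h and 31.8% at 12 h.

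Across the 13 group means the members' profiles were alike to different degrees. Pearson's r between 2 members ran from 0.283 to 0.968 over 28 pairs, with a median of 0.854, on values that share libraries and a common total. Against the members' mean standardised profile, which each member helped to make, Cyp51 had r = 0.975 and Idi1 r = 0.70. Of 3050 other genes with a mean of at least 10 TPM, 29 had a higher r than Cyp51. The 6 most alike were Anp32e (0.991), which codes for a histone chaperone, the AK079263;Lmnb1 row with lamin B1 of the nuclear envelope (0.991), Idh3a, a subunit of mitochondrial isocitrate dehydrogenase (0.990), Phb, prohibitin (0.987), Isyna1, inositol phosphate synthase (0.986), and Ptgs1, a prostaglandin synthase (0.984). Late differences of these were from -3.31 ± 0.13 for Ptgs1 to -1.24 ± 0.13 for Phb. Because these genes were picked by their profile over the same groups, their late falls follow from that choice.

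Other enzymes of the pathway were read from a second list of 9, of which 4 had an RNA row. Late in the time course 3 of these 4 were lower in LPS cells (47.7% of all genes), and after rescaling the count was again 3 (25.9% of all genes). Lbr, a sterol reductase that is also a receptor for lamin B, had -2.51 ± 0.28 (adjusted p = 7.5e-07), Mvd, mevalonate diphosphate decarboxylase, -1.55 ± 0.18 (adjusted p = 9.9e-07), and Ebp, a sterol isomerase, -1.41 ± 0.18 (adjusted p = 3.2e-06). Pmvk, phosphomevalonate kinase, the enzyme between Mvk and Mvd, did not pass at 0.29 ± 0.14 (adjusted p = 0.085) and was higher after rescaling (0.69, adjusted p = 0.00087). At 12 h Lbr had 4.12 and 2.50 TPM in LPS cells, against 26.4 and 16.8 TPM in mock cells, and Ebp had 32 and 56.2 TPM in LPS cells, against 116 and 133 TPM in mock cells. For both genes the LPS libraries lay below the mock libraries. RNA of Sqle, squalene epoxidase, was not analysed here.

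Neighbouring parts of lipid metabolism had late medians closer to that of all genes (-0.43) than the members' median (-1.53) was. Sterol efflux and storage, at -1.11, still lay nearer to the members than to all genes. The shares of all genes beside these late counts were 47.7% lower and 15.5% higher, and after rescaling 25.9% lower and 26.2% higher. Of 17 genes of the isoprenoid branch, which uses farnesyl diphosphate, 4 were measured, and late 1 was higher and 2 were lower, near the 47.7% of all genes (median -0.38, and 0.02 after rescaling). Chm, which presents Rab proteins for prenylation, was at 0.88 ± 0.14, and Zmpste24, a protease of prenylated proteins, at -0.86 ± 0.13. Fnta, a subunit of protein farnesyltransferase, was at -0.49 ± 0.15 (adjusted p = 0.012) and lost its call after rescaling (-0.08, adjusted p = 0.66). Of 14 genes that regulate SREBP, 5 were measured and 2 were lower, a smaller share than the 47.7% of all genes, Vcp (-0.32 ± 0.08) and Ube2g2 (-0.32 ± 0.10), both factors of protein degradation at the endoplasmic reticulum, and both turned to 0.09 after rescaling. Of 20 genes of sterol uptake and transport, 12 were measured, 6 lower and 2 higher (median -0.40), near the 47.7% and 15.5% of all genes, and after rescaling 0 were lower and 3 higher (25.9% and 26.2%). The 2 higher were Npc2, which carries cholesterol out of lysosomes (1.30 ± 0.17, adjusted p = 5.9e-06), and the lysosomal membrane protein Lamp2 (0.86 ± 0.17, adjusted p = 0.0003), while the lysosomal lipase Lipa (-0.68 ± 0.15, adjusted p = 0.001) lost its call after rescaling (-0.27, adjusted p = 0.19).

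Of 13 genes of sterol efflux and storage, 5 were measured and 3 were lower (47.7% of all genes, list median -1.11). These were Soat1, which esterifies cholesterol for storage (-1.30 ± 0.15), Nceh1, which hydrolyses cholesterol esters (-1.29 ± 0.18), and Lpcat3, a phospholipid acyltransferase (-1.11 ± 0.13), and each stayed lower after rescaling (-0.89, -0.89 and -0.71). Of 19 genes of fatty acid synthesis, 7 were measured and 5 were lower (47.7% of all genes, list median -0.59). Fasn, fatty acid synthase, had the lowest value at -2.54 ± 0.27 (adjusted p = 4.8e-07), near that of Cyp51, while Acly, which makes cytosolic acetyl-CoA, was at -0.13 ± 0.22 (adjusted p = 0.61). After rescaling 1 of the 7 was lower, Fasn (25.9% of all genes). Among acetyl-CoA enzymes and thiolases other than the Acat2 row, 5 of 7 were lower (47.7% of all genes, list median -0.63) and after rescaling 3 of 7 (25.9% of all genes, list median -0.23), with the mitochondrial thiolases Acat1 (-1.77 ± 0.09) and Acaa2 (-1.74 ± 0.19) and Oxct1 of ketone use (-1.25 ± 0.10) at the lower end.

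**Figure D3:**
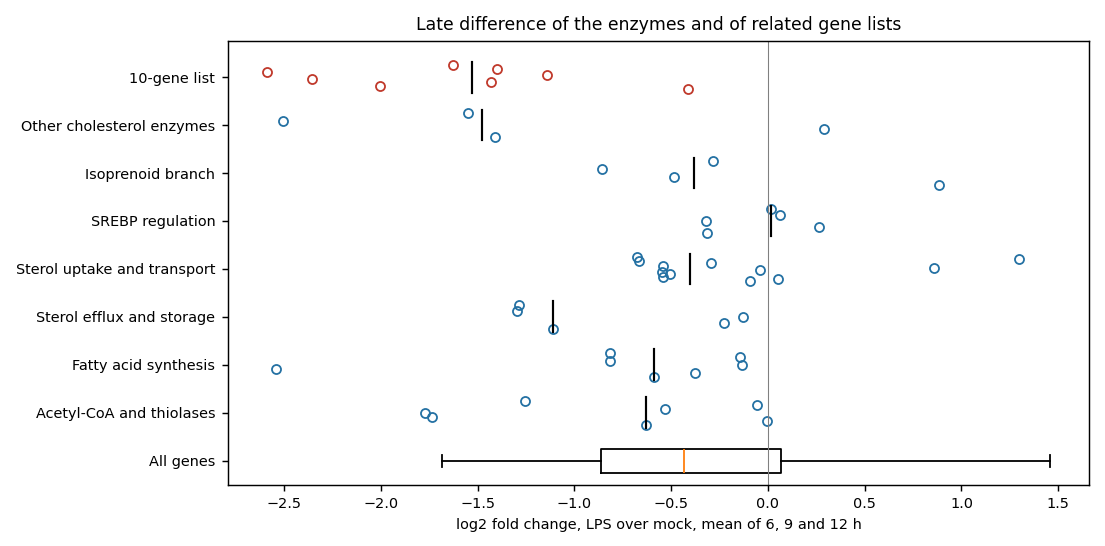
Late log2 fold change of TPM plus 1, LPS over mock (mean of 6, 9 and 12 h), with 1 circle per measured gene; vertical ticks are list medians, and the box shows the quartiles and the whiskers the range from the 5th to the 95th percentile of all 3147 genes. Of the 8 members 3 lie left of the lower whisker (-1.69), and the median tick of the members is at -1.53, beside -0.43 for all genes.

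Among markers of other cells, those called late went both ways. Of the granulocyte list 8 of 15 markers were measured, with 1 higher and 2 lower late, and of the macrophage list 6 of 11, with 2 higher and 2 lower. Over all genes, 15.5% were called higher and 47.7% lower late. The granulocyte list summed to between 1250 and 3080 TPM in the 6 late LPS libraries, against 2570 to 7250 TPM in the 6 late mock libraries. The macrophage list summed to 8010 to 28300 TPM in late LPS libraries, against 11200 to 39700 TPM in late mock libraries. The dendritic cell list summed to 12000 to 21500 TPM in late LPS libraries, against 9070 to 18100 TPM in late mock libraries. Of 11 erythroid markers 1 was measured, Car2, at 56.7 to 252 TPM in late LPS libraries, against 12.4 to 18.9 TPM in late mock libraries, and 0 of 15 lymphocyte markers had a row. The granulocyte gene Mpo did not pass 8.40 TPM in any library. The late sums of LPS and mock cells overlapped for all 3 lists, while Car2 did not overlap. The part of these cells in the members' falls was not tested.

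In resting cells the enzymes were also measured by ribosome footprints, the stretches of mRNA that ribosomes protect. All 9 members with a footprint row were detected in both libraries. Hmgcs1 was highest at 317 and 402 TPM, above 93.2% of the 6250 rows. Fdps had 171 and 164 TPM, Cyp51 127 and 155 TPM and Idi1 107 and 153 TPM. Fdft1, squalene synthase, had 61.3 and 67.1 TPM, and Dhcr7, the reductase of the last step to cholesterol, 57.3 and 60.2 TPM, which are the only values for these 2 enzymes here. The Acat2 row of this table, which does not name Acat3, had 42.0 and 41.2 TPM, Nsdhl 36.9 and 40.8 TPM and Lss 26 and 24.8 TPM. The libraries of Hmgcs1 did not overlap with those of any other member, while those of Fdps and Cyp51 were apart but near, and those of Cyp51 and Idi1 overlapped.

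Footprints were also present for Sqle, which had no RNA row here, at 66.4 and 76.1 TPM. Of the regulators, Srebf2 had 54.2 and 59.2 TPM, Insig1, which holds SREBP back, 42.9 and 54.3 TPM, and its escort Scap 3.69 and 3.91 TPM, above 1.49% of the rows.

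The footprint and RNA tables were normalised separately and over different sets of genes, so no test is reported. Levels were set side by side only as distances from the median of their own library, taken over the 2739 rows of the same name. On that scale Hmgcs1 stood at 2.85 and 3.13 in footprints, against 0.08 and 0.49 in RNA at 0 h, a difference of 2.71 that exceeded those of 99.4% of shared rows. Lss (1.30), Nsdhl (1.15), Cyp51 (0.87), Idi1 (0.63) and Fdps (0.61) had smaller differences, above those of 93.0%, 90.1%, 82.3%, 73.1% and 72.2% of shared rows. For all 6 of these members both footprint libraries stood above both RNA libraries. Of the other pathway enzymes, Lbr (1.47), Ebp (0.66) and Mvd (0.62) were also higher in footprints, and the libraries of Pmvk overlapped (0.06).

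**Figure D4:**
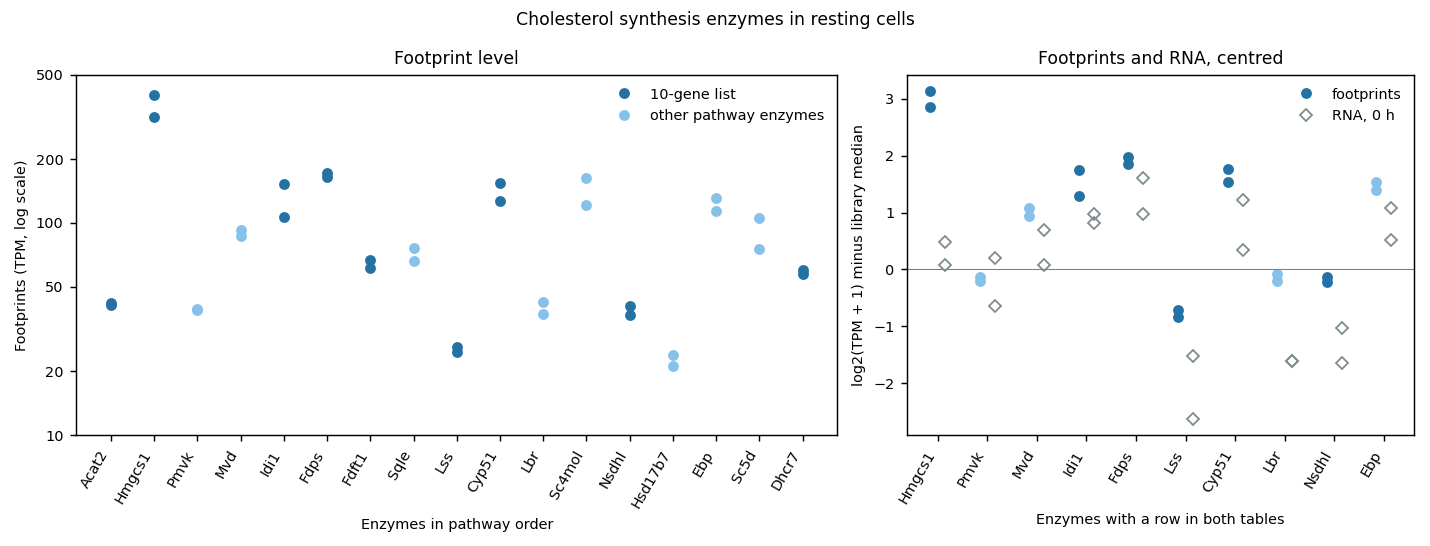
Resting cells: on the left, footprint levels in TPM (log scale) of 17 cholesterol synthesis enzymes in pathway order, 1 point per library, dark for the 10-gene list and pale for other enzymes; on the right, footprints (circles) beside 0 h RNA (open diamonds) for the 10 enzymes in both tables, as log2 of TPM plus 1 minus each library's median. Hmgcs1 is highest in footprints (317 and 402 TPM) and has the widest gap to its RNA (2.71).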

How the data were processed

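RNA values are TPM as deposited. Per the submitters' processing notes, the authors used Bowtie 0.12.7, RSEM 1.2.3 and mouse build mm9 for RNA, and Bowtie2 and TopHat2 (versions not given) for footprints. The deposited footprint columns add up to 1000000 each and were read as TPM. Per the labels' protocols, RNA was poly(A)-selected and libraries were strand-specific with 30-base reads. The 2 columns of 0 h under the LPS name repeat those under the mock name and were used once. For 4 h, the samples' descriptions give hour 5, while titles and table say 4.

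Log2(TPM + 1) was fitted with limma 3.58.1 (R 4.3.3) with 13 group means, a variance trend and 13 residual degrees of freedom. Genes needed 1 TPM in 2 libraries, which kept all 3147. TPM holds no depth, so no counting error is given. Other settings tried were a minimum of 10 TPM, no filter, pseudocounts of 0.1 and 5, median-ratio rescaling, quantile normalisation, a replicate term, the compared groups alone, and leaving out each library. Replicate numbers come from the titles. Differences between replicates of LPS and mock cells at the same time had correlations from 0.227 to 0.685 over the 6 times. The replicate numbers may thus pair libraries, but the main fit treats them as unpaired. A replicate term was used only as an alternative setting. The planned test of footprints against RNA was not used, because the 2 tables were normalised separately. The fit was tested on simulated data.

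Members and gene lists were chosen with earlier results of these data known. Named genes are all members, all measured enzymes of the second list, the 3 largest called late differences and the most abundant gene of each other list (not all printed), and the 6 genes most like the members. Promoters are from RefSeq (GRCm38.p6). Overlaps of exons and transcripts are from GENCODE M21. Figures used matplotlib 3.10.9 in Python 3.11.15. Results for some genes of these lists are not reported here.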

Additional observations from a re-analysis of the deposited data

Results flagged for a closer look

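For 6 members the difference between LPS and mock cells changed between the early mean (1 and 2 h) and the late mean (6, 9 and 12 h) in a direct test of that change by limma (22.2% of all genes were called lower in it). The changes on the log2 scale were -2.56 for Cyp51, -1.45 for Hmgcs1, -1.44 for the Acat2 row, -1.33 for Mvk, -1.11 for Fdps and -0.75 for Idi1, over 10 LPS and 10 mock libraries. The changes of Fdps and Idi1 did not pass after rescaling, which left 4 of 8 members called (10.5% of all genes). In a contrast chosen after seeing the data, the effect on Cyp51 also differed between 9 and 12 h and 4 and 6 h, by -1.36, and without any 1 of 8 of the 16 libraries it did not pass. The causes were not tested.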

How the results depend on the processing

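The late falls of all 8 members kept their direction under every alternative run, and their calls except Idi1 after rescaling and quantile normalisation. Of 1852 recomputed values of single genes, 1723 kept their direction and side of the threshold, 81 lost and 21 gained a call, and 27 turned in sign, of which 2 had been called. Where a cause is not named it was not tested.

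Counts of members lower in LPS cells moved by over 1.5 times as follows. At 2 h the 2 became 1 after rescaling, 1 after quantile normalisation, 0 in the compared groups alone and 0 to 1 with 1 library left out. At 4 h the 5 became 2 after quantile normalisation and 3 to 5 with 1 library left out (3 without mock replicate 2). At 6 h the 6 became 3 after rescaling, quantile normalisation or in the compared groups alone (which leave 2 residual degrees of freedom), and 3 to 5 with 1 library left out (3 without LPS replicate 2). At 9 h the 8 became 5 in the compared groups alone. With a replicate block, 7 members were lower at 4 h (44.9% of all genes with the block, 29.2% without) and 8 at 12 h (39.1% and 26.8%), 8 had a lower LPS effect late than early (37.2% and 22.2%), and no other call was changed among members beyond those given with the results.

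Signs turned for 2 called genes after rescaling, Vcp and Ube2g2 (both 0.09). Among values not called, rescaling turned Idi1 at 4 h to 0.36, and the late values of Rabggta to 0.12, Lamp1 to 0.37, Apoe to 0.18 and Acly to 0.27, and quantile normalisation turned Nsdhl at 2 h to 0.02. With 1 library left out, the ranges crossed 0 for Hmgcs1 at 2 h (-0.11 to 0.59), Idi1 at 1 h (-0.42 to 0.31) and at 4 h (-0.29 to 0.11), Fdps at 2 h (-0.54 to 0.07) and at 6 h (-0.97 to 0.07), Lss at 1 h (-0.29 to 0.03), Cyp51 at 1 h (-0.01 to 0.39) and at 2 h (-0.55 to 0.04), late Lamp1 (-0.14 to 0.06), and the change of Lss from 4 and 6 h to 9 and 12 h (-0.14 to 0.44). Other settings for footprints against RNA are not reported, since that test was not used. Depth is unknown, and 2 libraries a group limit the precision of members as low as Lss.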
